A study of Mus musculus with 6 samples.

Results

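Of 10 integrin subunit genes listed for naive CD4 T cells, 9 had a row in a table of 19048 transcript rows from 16911 named genes. The 9 were Itgb3, Itgb1, Itgb2 and Itgb7, which encode beta subunits, and Itgav, Itga4, Itga5, Itga6 and Itgae, which encode alpha subunits. Itgal is not analysed here. Members were chosen by symbol, through the RefSeq accession of each row, and each of the 9 had a single row. RNA was sequenced from 3 libraries of Trim28 knockout cells (KO1 to KO3) and 3 libraries of cells from wild-type littermates (WT1 to WT3), all on the C57BL/6 strain. Naive CD4 T cells are helper T cells that have not met antigen, and they were enriched with magnets and then sorted. Trim28 encodes a corepressor of transcription. The means and the cell types of the deletion, and the age and sex of the mice, are not given in the sources used here. KO was set against WT to see how integrin transcripts of unstimulated naive cells stand where Trim28 is missing.

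Integrins are receptors for matrix and for other cells, each built from 1 alpha and 1 beta subunit, so the transcript of a subunit does not give the amount of the receptor at the surface. In resting lymphocytes they are held in a low-affinity form. Chemokine or antigen receptor signals reach the small GTPase Rap1, after which talin and a kindlin bind the short cytoplasmic tail of the beta subunit and switch the receptor on. Itgb2 pairs with Itgal to bind Icam1 and Icam2, Itga4 pairs with Itgb7 to bind Madcam1 of gut vessels or with Itgb1 to bind Vcam1, and Itgb3 pairs with Itgav, or in platelets with Itga2b, to bind vitronectin, fibrinogen and other proteins.

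The 4 beta subunits compared below share this tail, and its coding sequence is shown because talin and kindlin binding is what they have in common. Each line gives the last 40 codons before the stop codon, 120 bases of the GENCODE M21 transcript (GRCm38) that matched the row, on the coding strand. Capitals mark codons of the NPxY motif or its NPxF form, and the marks do not tell sites of talin from sites of a kindlin.
Itgb3: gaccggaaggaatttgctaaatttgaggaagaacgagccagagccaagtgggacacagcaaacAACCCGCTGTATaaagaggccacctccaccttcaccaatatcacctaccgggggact
Itgb1: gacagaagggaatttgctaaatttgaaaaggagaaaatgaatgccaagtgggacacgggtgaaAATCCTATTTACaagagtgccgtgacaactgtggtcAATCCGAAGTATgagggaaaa
Itgb2: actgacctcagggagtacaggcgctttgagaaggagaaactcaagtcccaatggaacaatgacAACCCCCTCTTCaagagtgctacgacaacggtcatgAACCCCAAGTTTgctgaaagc
Itgb7: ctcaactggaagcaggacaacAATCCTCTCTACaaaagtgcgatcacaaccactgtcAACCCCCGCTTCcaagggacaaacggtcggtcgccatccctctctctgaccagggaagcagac
Itgb3 held 1 such motif in this stretch and Itgb1, Itgb2 and Itgb7 held 2 each. Near its end the Itgb3 stretch also has codons of a similar form without the proline, which were not marked. The count therefore does not give the number of sites for talin or a kindlin. Alike as they look, the transcripts are distinct: over all 36 pairs of members the longest identical run was 26 bases, and over 23 pairs of Itgb3 with another integrin it was 28 bases, against reads of 100 bases. No read of that length can therefore match 2 of these transcripts exactly.

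Depth, as reads recovered from the table, was 44372701, 22005759 and 36810371 in KO1, KO2 and KO3, and 23438722, 29687968 and 40586195 in WT1, WT2 and WT3. Trim28 itself was at 738, 628 and 1247 normalized reads in KO1, KO2 and KO3, against 8429, 8287 and 9428 in WT1, WT2 and WT3, and its KO mean was 9.99% of its WT mean. A normalized read count is the number of reads over the size factor of the library. KO3 stood apart, with more transcripts of CD8, B, NK, myeloid and effector cells, whose values are given beside the members they move with. KO2 and WT1 held many Y-linked transcripts, at 12677 and 13625 normalized reads summed over 4 genes, and the other 4 libraries at most 2.39. Xist, a marker of X inactivation, was nevertheless at 16359 in KO2 and 12289 in WT1, and at 19461 to 28062 in the other 4 libraries. Cd4, which defines the labelled cell type, was between 27989.9 and 32564 in KO and between 31880.1 and 34970.3 in WT.

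Itgb3 fell in KO, and it was the 1 of 9 members called at an adjusted p under 0.05. Its normalized read count was 2949, 2498 and 2539 in KO1, KO2 and KO3, against 6326, 6051 and 7180 in WT1, WT2 and WT3. The highest KO library lay far below the lowest WT library, and KO3 was close to KO2. The mean was 2662 ± 249 in KO and 6519 ± 588 in WT (SD, n = 3 per group), so KO cells held 40.8% of the WT level. The log2 fold change was -1.29 (SE 0.10, 95% interval -1.53 to -1.06; limma adjusted p 0.000413 over 13022 rows). Of those rows, 0.315% were called lower and 1.19% higher, 1.51% in all. The median log2 fold change was 0.14 over the 9 members and 0.0019 over all rows tested. Among the 41 rows called lower, Itgb3 ranked 6 by fold change and 2 by p. Permuting the 6 libraries exactly, two-sided, p was 0.1, which is the least possible with 3 per group. Each library rested on at least 1714 Itgb3 reads. In bulk RNA, fewer cells with a transcript and less of it per cell cannot be told apart.

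**Figure D1:**
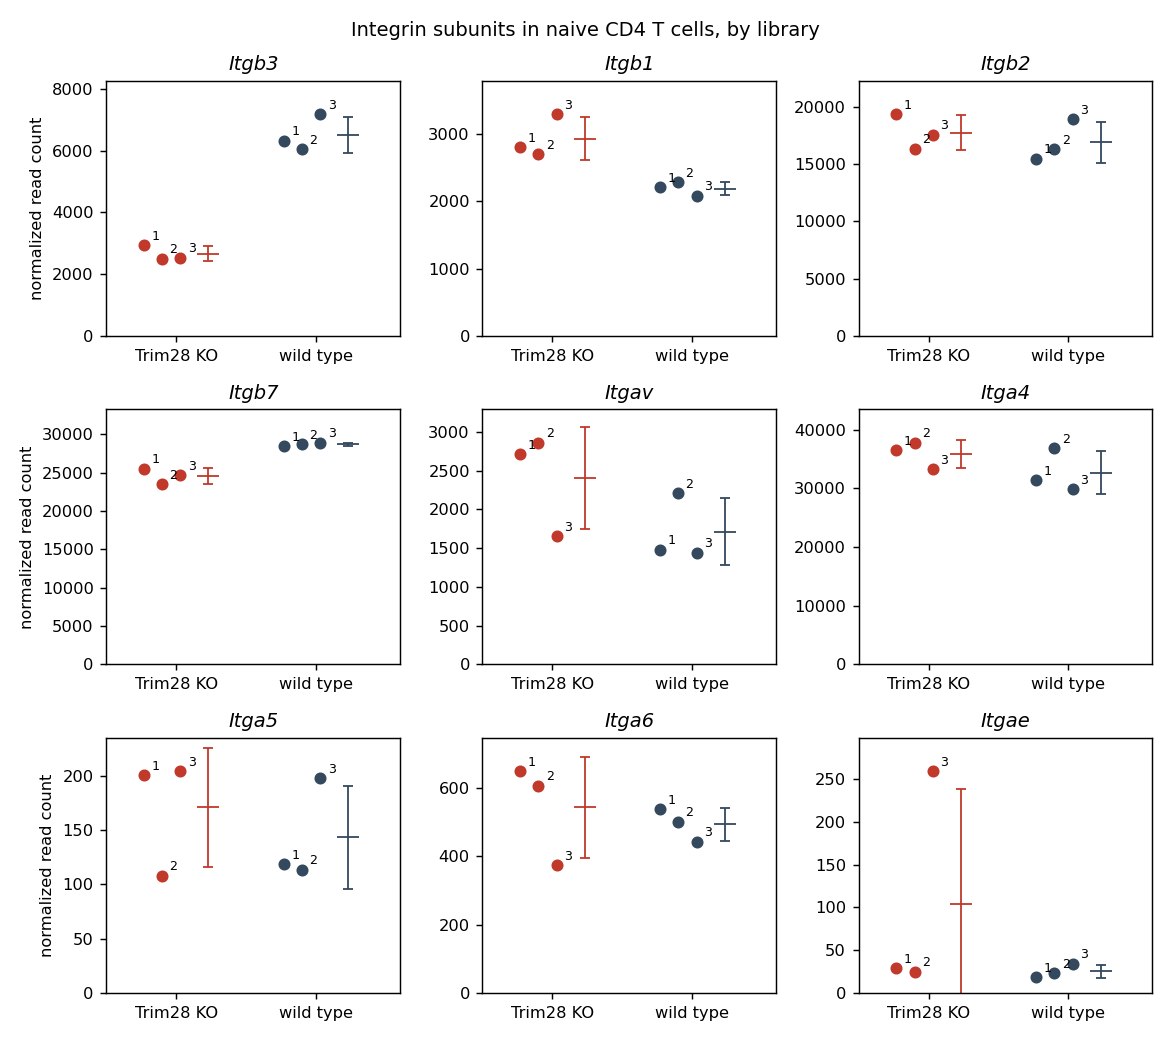
Normalized read count (vertical axes, each from 0) of the 9 integrin subunits in Trim28 KO libraries (left, red) and wild-type libraries (right, dark), with each point a library numbered 1 to 3 and bars for the mean ± SD of 3 libraries; the lower bar of Itgae in KO passes 0 and is cut there. Itgb3 lies between 2498 and 2949 in KO and between 6051 and 7180 in WT, while Itgae is high in KO3 alone.

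The position of Itgb3 was the same with and without the libraries that hold Y-linked transcripts. With many of them, it was 2498 in KO2 and 6326 in WT1, and with few, 2949 and 2539 in KO1 and KO3 against 6051 and 7180 in WT2 and WT3. In the fit of those last 4 libraries, chosen after the data were seen, the log2 fold change was -1.27, with an adjusted p of 0.0602. Itgb3 is also known from platelets, and of 12 platelet and megakaryocyte markers 9 had a row. Their summed level was 372 to 475 in KO and 342 to 401 in WT, most of it from Gp1ba and Itga2b. The platelet granule protein Pf4 was at most 5.83 in KO and 10.04 in WT, and the collagen receptor Gp6 at most 1.46 in KO and 1.1 in WT. Gp1ba was at 217 to 284 in KO and 174 to 240 in WT. The part of platelets in the Itgb3 result was not tested. Of 7 naive T cell markers, all with a row, 2 were called lower, where 0.315% of all rows were, and their sum was 70683 to 93133 in KO and 102616 to 112293 in WT. The 2 were Igfbp4, which encodes a binding protein of insulin-like growth factors (log2 fold change -1.35, SE 0.15, limma adjusted p 0.00199), and Dapl1 (-0.68, SE 0.11, adjusted p 0.0246). The transcription factors Tcf7 and Lef1 were not called, with log2 fold changes of 0.20 (SE 0.23) and 0.09 (SE 0.12) and overlapping groups. None of the 7 was at 0, and their part in the Itgb3 result was not tested.

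Itgav, the alpha partner of Itgb3, did not follow it. It was at 2712, 2858 and 1655 in KO1, KO2 and KO3, against 1479, 2206 and 1442 in WT1, WT2 and WT3. KO1 and KO2 lay above all WT libraries, and KO3 lay below WT2, so the groups overlapped. The log2 fold change was 0.48 (SE 0.23, 95% interval -0.05 to 1.01; limma adjusted p 0.447), and Itgav did not pass. Without KO3 it was called as higher, with a log2 fold change of 0.73 and an adjusted p of 0.0407, where 2.75% of rows were called higher and 1.55% lower, 4.3% in all. KO3 decided this call.

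The ratio of Itgb3 to Itgav within a library does not depend on how libraries are scaled. Per kilobase of transcript it was 1.33, 1.07 and 1.87 in KO1, KO2 and KO3, against 5.22, 3.34 and 6.07 in WT1, WT2 and WT3. Reads per kilobase of Itgb3 thus stood several-fold above those of Itgav in WT, and the ratio was nearer to 1 in KO. A ratio between genes counts transcripts only if each row holds all reads of its gene, which was not examined. The mean ratio was 1.42 ± 0.411 in KO and 4.88 ± 1.39 in WT (SD, n = 3 per group). Itga2b, the platelet partner, was at 119, 69.9 and 197 in the KO libraries and 87.8, 123 and 137 in the WT libraries, with overlapping groups and a log2 fold change of 0.05 (SE 0.35).

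**Figure D2:**
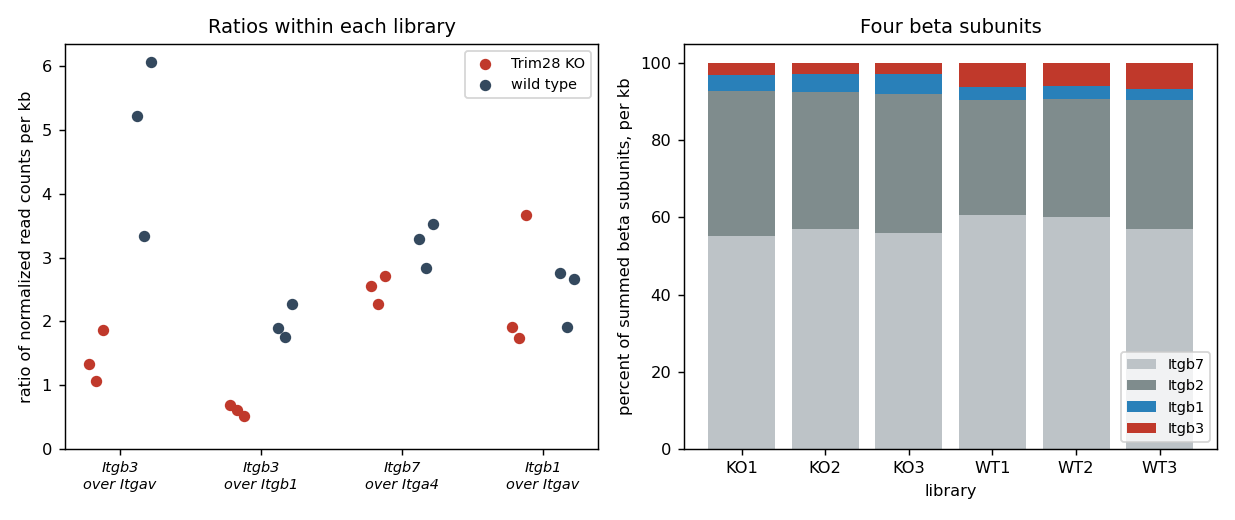
Left, ratio of normalized read counts per kilobase between pairs of subunits within each library, KO points left of WT points; right, stacked bars of the share of Itgb3, Itgb1, Itgb2 and Itgb7 in the sum of these 4 beta subunits per kilobase. Itgb3 over Itgav reaches 1.87 at most in KO and 3.34 at least in WT, and the Itgb3 share is 2.67% to 2.95% in KO and 5.87% to 6.56% in WT.

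Itgb1, the beta subunit with the most alpha partners, was at 2800.2, 2696 and 3290.1 in KO1, KO2 and KO3, against 2205, 2278 and 2082 in WT1, WT2 and WT3. All KO libraries lay above all WT libraries. The log2 fold change was 0.42 (SE 0.10, 95% interval 0.19 to 0.65), the unadjusted p 0.00285 and the limma adjusted p 0.112, so Itgb1 did not pass over all rows. Itgb7, the gut-homing partner of Itga4, was at 25549, 23520 and 24682 in KO1, KO2 and KO3, against 28449, 28742 and 28907 in WT1, WT2 and WT3. Here all KO libraries lay below all WT libraries, which sat within a narrow range. The log2 fold change was -0.22 (SE 0.08, 95% interval -0.41 to -0.04), with an adjusted p of 0.291 that did not pass. Itgb3, Itgb1 and Itgb7 were the members whose groups did not overlap, 2 with KO lower and 1 with KO higher of 9. Over all tested rows, 9.58% had KO lower and 9.21% had KO higher without overlap, 18.8% in either direction.

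The order of levels per kilobase differed between the genotypes at 1 place. Such an order takes each row to hold all reads of its gene, which was not examined. In KO it ran Itgb7, Itgb2, Itga4, Itgb1, Itgb3, Itgav, Itga6, Itga5 and Itgae, and in WT Itgb7, Itgb2, Itga4, Itgb3, Itgb1, Itgav, Itga6, Itga5 and Itgae. Itgb3 thus stood below Itgb1 in KO and above it in WT. Itgb3 was at 460 ± 43.1 per kilobase in KO and 1127 ± 102 in WT, and Itgb1 at 768 ± 83.2 in KO and 574 ± 25.9 in WT (SD, n = 3 per group). Their ratio, Itgb3 over Itgb1, was 0.695, 0.611 and 0.509 in the KO libraries and 1.89, 1.75 and 2.27 in the WT libraries. The top 3 were far above the rest, with Itgb7 at 9163 ± 379 per kilobase in KO and 10697 ± 86.5 in WT. Neighbours in the order were apart in every library of a group, except Itga5 and Itgae in KO.

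The sum of the 4 beta subunits per kilobase was 17276, 15408 and 16412 in KO1, KO2 and KO3, and 17484, 17835 and 18926 in WT1, WT2 and WT3. Of that sum, Itgb3 made 2.81% ± 0.138 in KO and 6.23% ± 0.347 in WT (SD, n = 3 per group). The Itgb3 share was thus apart between the genotypes in every library. Itgb1 made 4.70% ± 0.512 in KO and 3.18% ± 0.256 in WT. Itgb2 made 36.5% ± 1.06 in KO and 31.4% ± 2.002 in WT, and Itgb7 made 56.0% ± 0.888 in KO and 59.2% ± 2.001 in WT. A share rises when another falls, so these values describe the mixture of reads per kilobase and not each gene. They too take each row to hold all reads of its gene.

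Itgb2, the common beta subunit of leukocyte integrins, was among the least different members. It was at 19334, 16345 and 17557 in KO1, KO2 and KO3, against 15471, 16273 and 18904 in WT1, WT2 and WT3. The groups overlapped, with a log2 fold change of 0.07 (SE 0.11, 95% interval -0.17 to 0.32). Itga4, which pairs with Itgb7 and Itgb1, was at 36521, 37782 and 33242 in KO1, KO2 and KO3, against 31404, 36833 and 29892 in WT1, WT2 and WT3. It overlapped as well, with a log2 fold change of 0.14 (SE 0.11, 95% interval -0.11 to 0.38). For both genes the interval leaves out a change as large as that of Itgb3. The ratio of Itgb7 to Itga4 per kilobase was 2.55, 2.27 and 2.70 in the KO libraries and 3.30, 2.84 and 3.52 in the WT libraries, without overlap. The Itga4 gene overlaps Cerkl, which had at most 185 normalized reads in any KO library and 176 in any WT library.

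Itga6 pairs with Itgb1 to bind laminin, and Itga5 pairs with it to bind fibronectin. Itga6 was at 649, 606 and 375 in KO1, KO2 and KO3, against 538, 501 and 443 in WT1, WT2 and WT3. KO3 was the lowest of all 6 libraries and KO1 the highest, so the groups overlapped. The log2 fold change was 0.10 (SE 0.20), and it was -0.047 without KO1 and 0.35 without KO3, in no case called. Itga5 was at 201, 108 and 204 in KO1, KO2 and KO3, against 119, 113 and 198 in WT1, WT2 and WT3. Both groups held low and high libraries, and the log2 fold change was 0.24 (SE 0.30, 95% interval -0.45 to 0.94).

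**Figure D3:**
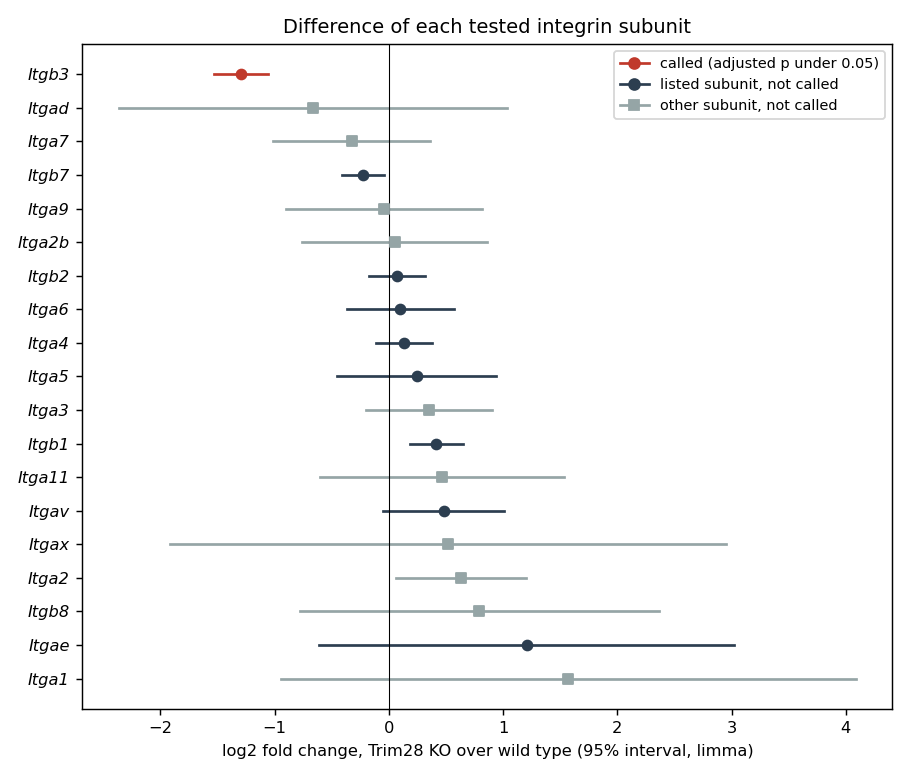
Log2 fold change of Trim28 KO over wild type (horizontal axis) with its 95% interval from limma, for the 9 listed subunits (circles) and the 10 other integrin subunits that passed the filter on low values (squares). Itgb3, in red, is the one called, at -1.29, and the widest intervals belong to Itga1, Itgax and Itgae, which are high in KO3.

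Itgae pairs with Itgb7 to bind E-cadherin and marks T cells resident in epithelia. It was at 28.6, 24.8 and 259 in KO1, KO2 and KO3, against 18.1, 23.1 and 33.99 in WT1, WT2 and WT3. KO3 was far above the other 5 libraries, which lay close together. The log2 fold change was 1.21 (SE 0.80, limma adjusted p 0.584), and without KO3 it was 0.13 (adjusted p 0.889). In KO3 it rested on 325 reads, and elsewhere on 17 to 40 reads in KO and 13 to 44 in WT. Haspin, whose gene lies in that of Itgae, was at 338, 386 and 441 in the KO libraries and 505, 399 and 406 in the WT libraries, so that KO3 lay within the range of WT. Where exons of both genes cover the same bases, reads cannot be told apart without knowledge of the strand. Whether the exons do so was not examined.

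Markers of other cells were higher in KO3 too. The 2 CD8 T cell markers summed to 755, 708 and 4416 in KO1, KO2 and KO3, and to 873, 561 and 1065 in WT1, WT2 and WT3. The 8 effector and memory markers summed to 2877, 2225 and 6087 in the KO libraries, and to 1542, 1963 and 1998 in the WT libraries. KO3 was the highest library in both lists. Most of the second sum was Il2rb, at 2579, 1969 and 4727 in the KO libraries and 1301, 1687 and 1669 in the WT libraries, while Cd44 of that list had overlapping groups. The 4 regulatory T cell markers summed to 1946, 1857 and 4199.5 in KO, and to 1332, 1732 and 1362 in WT. Of the 3 that were tested, Il2ra was called higher in KO, where 1.19% of all rows were. It was at 358, 373 and 714 in KO1, KO2 and KO3, and at 172, 151 and 188 in WT1, WT2 and WT3, without overlap. Most of the sum was Ikzf2, at 3249 in KO3, while the defining marker Foxp3 was at 11.4, 7.29 and 2.39 in the KO libraries and 6.97, 9.90 and 9.27 in the WT libraries. The groups overlapped for Foxp3, and KO3 was its lowest library. Ctla4 was at 169 to 234 in KO and 129 to 156 in WT, without overlap. It was not called, with a log2 fold change of 0.51 (SE 0.17). Over all tested rows, 9.21% had KO higher without overlap. The 6 B cell markers summed to 192, 188 and 1467 in KO, and to 324, 171 and 263 in WT. The 9 myeloid and dendritic cell markers summed to 149, 106 and 1086 in KO, and to 667, 96.8 and 390.1 in WT, with Cd14 at 0 in 5 of the 6 libraries. In both lists KO3 was again the highest, though WT1 was also high for the myeloid markers. The 4 NK cell markers summed to 94.2, 90.3 and 395 in KO, and to 62.7, 82.5 and 74.2 in WT. The gate of the sort was for naive CD4 T cells, and the part of other cells in the Itgae value was not tested.

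**Figure D4:**
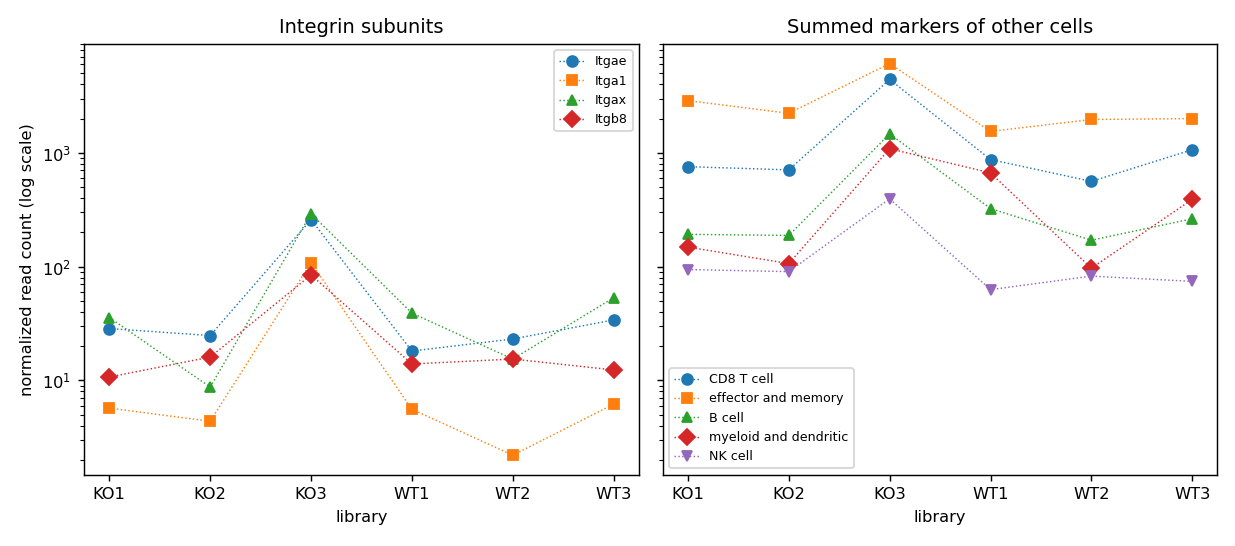
Normalized read count on a log axis by library, for Itgae and 3 other integrin subunits (left) and for the summed markers of 5 other cell types (right); dotted lines join the values of 1 gene or list. KO3 is the highest library for all of them, with Itgae at 259 and Itgax at 292.

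Of the other integrin subunits, 15 had a row and 10 passed the filter of a mean of at least 10. Limma called 0 of the 10, and 0 with voom weights, while 1 had an unadjusted p under 0.05, against 1.51% called and 12.7% with such a p over all rows. The median log2 fold change of the 10 was 0.41, against 0.0019 over all rows tested, and Itga1 passed the filter through KO3. Itgax, which marks dendritic cells, was at 35.7, 8.74 and 292 in KO1, KO2 and KO3, against 39.0, 15.4 and 53.3 in WT1, WT2 and WT3. Itga1, a collagen-binding subunit of tissue T cells, was at 5.71, 4.37 and 108 in the KO libraries, against 5.58, 2.20 and 6.18 in the WT libraries. Itgb8, which partners Itgav in releasing active transforming growth factor beta, was at 10.7, 16.0 and 84.5 in the KO libraries, against 13.9, 15.4 and 12.4 in the WT libraries. In all 3 genes KO3 alone was high. Itga2, another collagen-binding subunit, was the one with the unadjusted p under 0.05. It was at 112, 118 and 186 in KO1, KO2 and KO3, against 107, 83.6 and 72.6 in WT1, WT2 and WT3, with a log2 fold change of 0.63 (SE 0.25) that did not pass. Itga3 and Itga7, laminin-binding subunits, had overlapping groups, with means of 133 in KO and 106 in WT for Itga3, and 364 in KO and 451 in WT for Itga7. Itga9, Itga11 and Itgad had log2 fold changes of -0.04, 0.46 and -0.66, with overlapping groups. Itgb4, Itgb5, Itga8, Itgam and Itgb2l were below the filter, at no more than 9.56 in any library.

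Of 25 listed activators and adaptors, 23 had a row and 21 were tested, of which limma called 0, also with voom weights, while 2 had an unadjusted p under 0.05. Over all rows tested, 1.51% were called and 12.7% had such a p. The median log2 fold change of the 21 was 0.06. Tln1, the talin of blood cells, averaged 38394 ± 6764 in KO and 33226 ± 3203 in WT (SD, n = 3 per group). Fermt3, the kindlin of blood cells, averaged 9451 ± 661 in KO and 10096 ± 890.2 in WT. Rap1b, which encodes a Rap1 protein, averaged 17136 ± 3217 in KO and 18782 ± 1725 in WT. In each of these 3 genes the groups overlapped. Rasgrp2, an exchange factor that loads Rap1, had the smallest p of the list. It was at 6466, 5095 and 6315 in KO1, KO2 and KO3, against 8062, 7933 and 9554 in WT1, WT2 and WT3. All KO libraries lay below all WT libraries, and the log2 fold change was -0.52 (SE 0.12), which at an adjusted p of 0.0978 did not pass. Krit1, whose protein binds Rap1, and Fyb, an adaptor in Rap1 signalling, had log2 fold changes of -0.38 (SE 0.17) and 0.33 (SE 0.19). Without KO3, Rasgrp2 was called as lower (-0.56, adjusted p 0.0369). In the same fit Apbb1ip, which links Rap1 to talin, was called as higher (0.75, adjusted p 0.0201), against 0.44 with all libraries. These are 2 of 21, where 4.3% of all rows were called.

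Of 28 genes of focal adhesions and integrin signalling, 25 had a row and 21 were tested, and 1 fell while 0 rose, with 2 at an unadjusted p under 0.05. Over all rows, 0.315% were called lower, 1.19% were called higher and 12.7% had an unadjusted p under 0.05. The median log2 fold change of the 21 was -0.0050, against 0.0019 over all rows tested. Tns3 passed the filter through KO3, at 114 there and at most 19.5 in any other library. The one that fell was Myo10, a myosin that carries integrins to the tips of filopodia. It was at 996, 825 and 784 in KO1, KO2 and KO3, against 1838, 2016 and 2054 in WT1, WT2 and WT3. The groups lay well apart, and the log2 fold change was -1.19 (SE 0.11, limma adjusted p 0.00106). Zyx, which encodes the adhesion protein zyxin, was at 232, 178 and 118 in the KO libraries and 79.5, 111 and 100.4 in the WT libraries. The groups did not overlap, and it did not pass (log2 fold change 0.81, SE 0.26, adjusted p 0.232), and without KO3 it was called as higher (1.07, adjusted p 0.0283). The tetraspanin Cd81 and the scaffold Git1 had log2 fold changes of 0.47 (SE 0.32) and 0.22 (SE 0.16), with overlapping groups.

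Of 25 integrin ligands, 20 had a row and 15 were tested, of which limma called 0, also with voom weights, while 3 had an unadjusted p under 0.05, against 1.51% called and 12.7% with such a p over all rows. The median log2 fold change of the 15 was 0.43. Cdh1, the E-cadherin that Itgae binds, was at 75.0, 37.9 and 78.9 in KO1, KO2 and KO3, against 13.9, 20.9 and 16.99 in WT1, WT2 and WT3. The groups did not overlap, and the log2 fold change of 1.77 (SE 0.36) had a limma adjusted p of 0.0583. It was called as higher without KO2 (2.11, adjusted p 0.0421). Icam2 and Icam1, ligands of the integrin of Itgal and Itgb2, lay on opposite sides. Icam2 was at 2755, 2718 and 2559 in the KO libraries and 3296, 3388 and 3172 in the WT libraries, with a log2 fold change of -0.30 (SE 0.08) that did not pass. Icam1 was at 1611, 1628 and 1902 in the KO libraries and 1492, 1127 and 1377 in the WT libraries, with a log2 fold change of 0.37 (SE 0.13) that did not pass. Lamc1, a laminin chain, was highest in KO3, at 122, and did not pass.

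Of named genes, those whose levels followed Itgb3 most closely were Ifi44, Trib2, Cdh24, Tmem33 and Myo10. Rows with no name or a provisional one (Gm, LOC or Rik) were passed over, as were rows below the highest of a gene. These genes were taken from 10147 other rows with a mean of at least 50. The measure was Pearson correlation of log2 values over the 6 libraries, with r between 0.992 and 0.996. Such values include the gap between the genotypes, and no p is given for them. For deviations from the group means, r was 0.930 for the interferon-induced gene Ifi44, 0.927 for the pseudokinase Trib2, 0.959 for the cadherin Cdh24, 0.626 for Tmem33 and 0.745 for Myo10, again over 6 libraries. Ifi44 was at 248, 235 and 242 in KO1, KO2 and KO3, against 431, 425 and 450.3 in WT1, WT2 and WT3. Trib2 was at 14389, 12656 and 13421 in KO, against 19176, 18642 and 20131 in WT, and Cdh24 at 279, 224 and 209 in KO, against 528, 522 and 657 in WT. All of these but Tmem33 were called lower in limma, and Tmem33 was at 47.8, 43.7 and 45.4 in KO and 75.3, 72.6 and 73.4 in WT. Among the members, Itgb7 had the highest correlation with Itgb3, at 0.975, and Itgb1 the lowest, at -0.926. For deviations from the group means, r was 0.687 for Itgb7 and -0.438 for Itgb1, and it was highest for Itgb2, at 0.900, whose r over the 6 libraries was -0.171.

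Itgb3 lies on chromosome 11, from 104608000 to 104670476 of GRCm38, the assembly of mm10, and no other RefSeq gene overlaps it. Within 500 kb on either side, 6 of 23 annotated genes had a row and 4 were tested, of which limma called 0. The nearest with a row was Myl4, a myosin light chain 20.8 kb away, at 35.7, 16.0 and 38.3 in KO1, KO2 and KO3 and 36.3, 20.9 and 46.3 in WT1, WT2 and WT3. Kansl1, a chromatin protein on the same side, averaged 10205 ± 1727 in KO and 8841 ± 700.4 in WT (SD, n = 3 per group). Mettl2 and Tlk2, on the other side, had log2 fold changes of -0.13 (SE 0.09) and -0.19 (SE 0.17). None of the 4 had groups apart. Itgae also lies on chromosome 11 (73090505 to 73147449), and Itga6 (71786886 to 71858427), Itga4 (79255426 to 79333114) and Itgav (83722303 to 83806917) lie on chromosome 2. Itgb7 (102215994 to 102233405) and Itga5 (103344286 to 103366791) lie on chromosome 15, Itgb1 (128685654 to 128733579) on chromosome 8 and Itgb2 (77530329 to 77565708) on chromosome 10. With Itgb3 the 1 member called, the calls cannot show whether members on 1 chromosome change together.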

How the data were processed

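RNA of 3 Trim28 KO and 3 wild-type libraries of naive CD4 T cells was analysed from 1 table. The authors deposited log10 values: 10 to the power of the value, minus 1, gave whole multiples of 1 step per library for 100% of values (within 0.01), so each value is log10 of 1 plus a read count over a size factor. The submitters' processing notes name mm10, DESeq2, HTSeq and STAR, without roles or versions. Strandedness and the handling of reads shared by genes: not given in the sources used here.

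Rows were named from RefSeq tables of GRCm38.p6 (18811 rows) and GENCODE M21 (104), and a gene is represented by its row of highest total. Transcript lengths are those of matching GENCODE transcripts. The test was limma 3.58.1 in R 4.3.3 on log2 of the normalized count plus 1, with the empirical Bayes trend, on rows with a mean of at least 10, two-sided, with Benjamini-Hochberg adjustment and a threshold of 0.05. The pseudocount understates folds of low genes. The script was tested on simulated data. Labels do not say whether each library is a different mouse or a pool of mice, though libraries within each group differ in Y-linked transcripts. The p-values rest on the spread among these libraries.

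Members and lists were chosen with earlier results of these data known. Named were all members, the other tested integrins, and in each pathway list up to 4 genes with the smallest p and any called. Also named were markers whose list moves with a member, and the 5 named genes most like Itgb3. Tln1, Fermt3, Rap1b, the genes beside Itgb3 and the named naive T cell markers were added after values were seen. Alternatives covered the pseudocount, filter, scaling, variance model, replicate block, covariate, rows summed per gene and each library left out.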

Additional observations from a re-analysis of the deposited data

How the results depend on the processing

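Itgb3 was called lower under each of the 18 settings listed for it, with log2 fold changes from -1.37 to -1.22 (also the range with 1 library left out) and adjusted p from 0.000139 to 0.0143. In the 4 libraries with few Y-linked reads, chosen after the data were seen, it was -1.27 and missed the threshold (adjusted p 0.0602). There limma called 0 of 9 members (2 at an unadjusted p under 0.05), 0 focal adhesion genes (1 at an unadjusted p under 0.05), and 36 rows higher and 1 lower. Fewer libraries enter that fit, 2 against 2. With 1 library left out, 1 to 2 members were called, the second being Itgav without KO3, and Itga6 ran from -0.047 to 0.35, turning sign without KO1. Activators numbered 0 to 2, focal adhesion genes 1 to 2 and ligands 0 to 1, and other integrins stayed at 0. With Y-linked transcripts as a covariate 1 ligand, Cdh1, was called. The cause was not tested.

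Over all rows, 155 were called higher and 41 lower. Leaving out 1 library gave 94 (KO2) to 354 (KO3) higher. For lower rows this was 22, 19 and 199 on leaving out KO1, KO2 and KO3, and 14, 18 and 14 on leaving out WT1, WT2 and WT3. Totals made equal gave 27 lower and the fit without the mean-variance trend 17. Same-numbered libraries deviated from their group means with r of -0.312, 0.256 and 0.363 for KO1, KO2 and KO3. KO1 was closest to WT2 (0.371), while KO2 was closest to WT2 and KO3 to WT3. With 3 libraries per group, these values cannot decide whether the numbers pair the libraries. With the replicate block, Itgb3 was at -1.29 (adjusted p 0.00178), and 143 rows were called higher and 32 lower. Among the 9 members Itgae had the fewest reads, 13 to 44 outside KO3, and of the other tested subunits Itga1 had 2 to 8 outside KO3.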
